A study of Homo sapiens with 2 samples.

Results

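The genes described here encode the proteins of the mitochondrial ribosome whose symbols begin with MRPL (large subunit) or MRPS (small subunit) followed by a number. They were found through the coding RefSeq transcripts in the deposited assemblies, together with assembled models that share an exact intron with such a transcript on the same strand, and pseudogenes were left out. The rule gave 77 genes of the 18857 with coding RefSeq models. Their levels were read in a library of HCT116 cells labelled USP49 knockdown and in a control library, 1 library each. HCT116 is a human colorectal carcinoma line, and all cells carried a tetracycline-inducible knockdown of USP49, a ubiquitin protease that acts on histone H2B. The protocol text gives harvest at 36 h after doxycycline in the same words for both libraries and does not say whether the control culture received the drug. Nothing in the labels names separate cultures or clones.

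The mitochondrial ribosome translates the few messages encoded by mitochondrial DNA, which specify core subunits of the respiratory chain and of ATP synthase. All of its proteins are encoded in the nucleus, made in the cytosol and imported, and they assemble on rRNA made inside the organelle. Some descend from bacterial ribosomal proteins, and others occur in mitochondrial ribosomes and have no bacterial counterpart. The symbol does not always give the subunit: MRPS30 and MRPS18A sit in the large subunit. MRPS18A and MRPS18B resemble bacterial S18, but MRPS18C fills its place in the ribosome, so they are grouped here with the proteins that have no bacterial counterpart.

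Recovered fragments on the numbered chromosomes, X and Y came to 19978800 in the library labelled knockdown and 16393994 in control. A single library stood for each group, so no test was made, and the 95% intervals below cover counting error only, PCR copies not being independent molecules. In bulk RNA fewer cells of a kind and less RNA per cell cannot be told apart. USP49 itself did not settle the label. It had 1.09 FPKM on its RefSeq exons in the library labelled knockdown, against 0.89 FPKM in control, under the minimum used below, a ratio of 1.205 (0.82 to 1.78). The sum over its named models was 1.103 FPKM against 2.88 FPKM, from 69 and 206 fragments, lower in the library labelled knockdown. Of 8 colon epithelial markers, 5 were measured in both libraries, and EPCAM stood at 144.0 FPKM in the library labelled knockdown and 151.0 FPKM in control. CDH17, VIL1 and CEACAM5 were at or near 0 in both. Of 10 markers of leukocytes, endothelium, fibroblasts and neural cells, COL1A1 at 6.4999 and 6.83 FPKM and SYP at 1.24 and 1.09 FPKM passed the minimum in the library labelled knockdown and in control.

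Sequence is shown first for the members whose coding exons were joined differently in the 2 assemblies. Capitals mark the bases that the assembled or RefSeq model of the named library leaves out, and lower case gives the flanking coding bases of the transcript. The sequences are from GENCODE transcripts matched to the RefSeq models by accession and by the lengths of inner exons, in transcript sense, with GRCh38 positions from the first to the last capital.
MRPL33, exon of 107 bases left out by a model in the control library, plus strand, chr2:27774424-27774530: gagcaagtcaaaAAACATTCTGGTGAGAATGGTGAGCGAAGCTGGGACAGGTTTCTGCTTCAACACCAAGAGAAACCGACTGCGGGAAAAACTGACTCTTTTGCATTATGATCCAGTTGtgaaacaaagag
MRPL2, exon of 74 bases left out by a model in the control library, minus strand, chr6:43055545-43055618: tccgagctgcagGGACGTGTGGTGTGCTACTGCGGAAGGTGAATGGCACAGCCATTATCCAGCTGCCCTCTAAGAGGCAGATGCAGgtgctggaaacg
MRPS10, exon of 73 bases left out by a model in the library labelled knockdown, minus strand, chr6:42214120-42214192: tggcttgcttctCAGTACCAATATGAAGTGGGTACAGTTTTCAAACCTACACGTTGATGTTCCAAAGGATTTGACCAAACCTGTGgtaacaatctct
MRPS18A, 2 neighbouring exons of 140 bases together left out by a model in the library labelled knockdown, minus strand, chr6:43678518-43681120: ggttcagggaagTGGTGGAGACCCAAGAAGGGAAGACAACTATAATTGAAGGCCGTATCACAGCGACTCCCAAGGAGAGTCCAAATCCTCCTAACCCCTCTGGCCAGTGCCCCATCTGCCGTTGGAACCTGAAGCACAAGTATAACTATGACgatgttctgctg
MRPS22, first 3 bases of an exon left out by a model in the library labelled knockdown, plus strand, chr3:139346878-139346880: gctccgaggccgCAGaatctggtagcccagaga
MRPS11, first 3 bases of an exon left out by a model in the control library, plus strand, chr15:88467908-88467910: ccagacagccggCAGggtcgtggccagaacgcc
MRPS15, first 5 bases of an exon left out by a model in the control library, minus strand, chr1:36462159-36462163: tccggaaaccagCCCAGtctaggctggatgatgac

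The bases left out at the start of an exon end in AG in MRPS22, MRPS11 and MRPS15 alike. Their loss keeps the reading frame in MRPS22 and MRPS11, while the 5 bases of MRPS15 are not a multiple of 3. None of the whole-exon losses shown is a multiple of 3 either: 107 bases in MRPL33, 74 in MRPL2, 73 in MRPS10 and 140 in MRPS18A. MRPL55 is not shown. There a RefSeq intron of the library labelled knockdown alone spans 2 RefSeq exons of 105 bases together. Whether these exons are coding, or lie in the same transcript, was not checked. The effect on the reading frame of MRPL55 was therefore not tested.

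A gene's level is the density of fragments on the exons of its RefSeq coding models, scaled by length and depth (FPKM), from models of either strand. A gene was called measured when its mean over the 2 libraries reached 1 FPKM and its exons 300 bases. That held for 76 of the 77 members and for 11449 of all genes. MRPS18B, a small subunit protein, was the exception. It had a listed value of 0 in the library labelled knockdown and in control, on chromosome 6 and on the 2 alternative copies of that region in the build. MRPL20, whose bacterial counterpart acts early in large subunit assembly, was the lowest measured member, at 4.06 FPKM in the library labelled knockdown and 4.51 FPKM in control, from 59.5 and 54.1 fragments. Every other measured member was above 12 FPKM in both libraries.

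The most abundant members were the same in both libraries. MRPL12, the stalk protein that works with translation factors and also binds the mitochondrial RNA polymerase, had 218.2 FPKM in the library labelled knockdown and 226.6 FPKM in control. MRPL51, a large subunit protein without a bacterial counterpart, followed at 215.1 and 210.9 FPKM. MRPL18 had 136.8 and 131.5 FPKM in the library labelled knockdown and in control, MRPL13 125.2 and 115.3 FPKM, and MRPS34, needed for a stable small subunit, 121.3 and 108.9 FPKM. MRPS7, a bacterial-type small subunit protein, had 117.7 and 115.1 FPKM, MRPS23 113.7 and 112.4 FPKM, and MRPS22 112.8 and 111.5 FPKM. At the low end stood MRPS25 with 12.6 FPKM in the library labelled knockdown and 14.2 FPKM in control, MRPS14 with 16.0 and 12.5 FPKM, MRPL30 with 17.1 and 14.1 FPKM, and MRPL22 with 18.3 and 15.5 FPKM. MRPS10 lay among them at 16.4 and 17.1 FPKM. Levels thus spanned 53.7-fold in the library labelled knockdown and 50.3-fold in control.

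**Figure D1:**
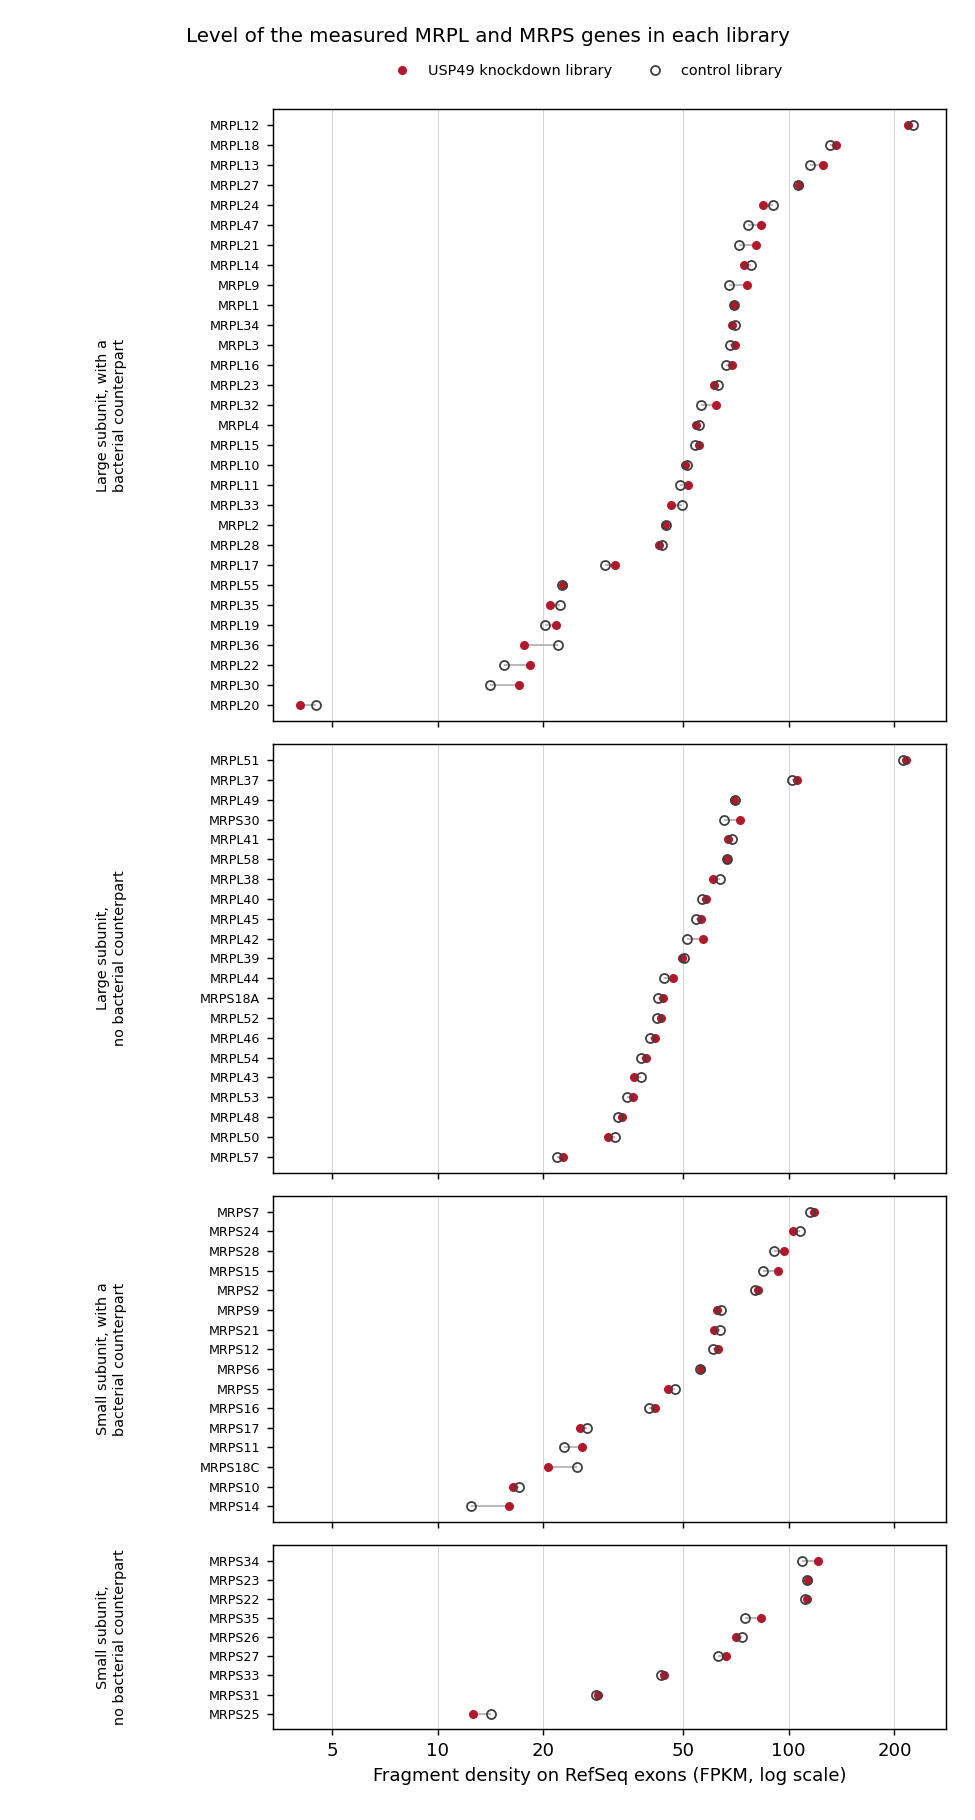
Level of each measured member in the library labelled knockdown (filled) and in the control library (open), in FPKM on a log axis, grouped by subunit and by whether the protein has a counterpart in the bacterial ribosome, with MRPS18A among those without. The symbols of a gene nearly coincide, from MRPL12 at 218.2 and 226.6 FPKM to MRPL20 at 4.06 and 4.51 FPKM.

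The classes of subunit had like levels. The 30 large subunit proteins of bacterial type had a median of 58.4 FPKM in the library labelled knockdown and 55.9 FPKM in control, and the 21 without a bacterial counterpart 49.8 and 50.3 FPKM. The 16 small subunit proteins of bacterial type had medians of 59.0 and 58.3 FPKM, and the 9 measured ones without a counterpart 70.6 and 73.5 FPKM. All 76 members together summed to 4721 FPKM in the library labelled knockdown and 4630 FPKM in control. The median member, at 56.7 and 55.7 FPKM, was well above the median measured gene, at 14.3 and 14.4 FPKM. Members with 3 or more pseudogenes in the RefSeq table had a median of 30.5 FPKM in the library labelled knockdown and 32.0 FPKM in control (n = 13), beside 64.5 and 64.1 FPKM for those with none (n = 36). Reads from near-identical copies may be divided in either way, so levels of members with pseudogenes are uncertain, MRPL20 with 1 and MRPS18B with 2 among them; whether those copies bear on the levels was not tested. PPP1R10, which starts 402 bases from MRPS18B on the other strand, was also at 0 in both libraries, and VARS2 on the same chromosome had 3 fragments in the library labelled knockdown and 2 in control.

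The levels of mitochondrial ribosomal protein genes were nearly the same in the 2 libraries. Ratios are given as the level in the library labelled knockdown over control, and log2 ratios with 1 FPKM added to each level. The median log2 ratio of the 76 members was 0.03 and their range −0.31 to 0.33. For all 11449 measured genes the median was −0.0033. Of the members, 47 were above 0 and 29 below, or 61.8% above, beside 48.8% of all measured genes and 52.2% of genes of like level. The ratio was within 1.1-fold either way for 61 of 76, or 80.3%. Genes of like level, those between 16.5 and 117.3 FPKM, had 80.9% within 1.1-fold (n = 4719). They were cut to that range and not matched in level. Their median level was 31.2 FPKM in the library labelled knockdown and 31.4 FPKM in control, below the members' 56.7 and 55.7 FPKM. The SD of the log2 ratio was 0.10 for the members and 0.12 for the genes of like level.

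**Figure D2:**
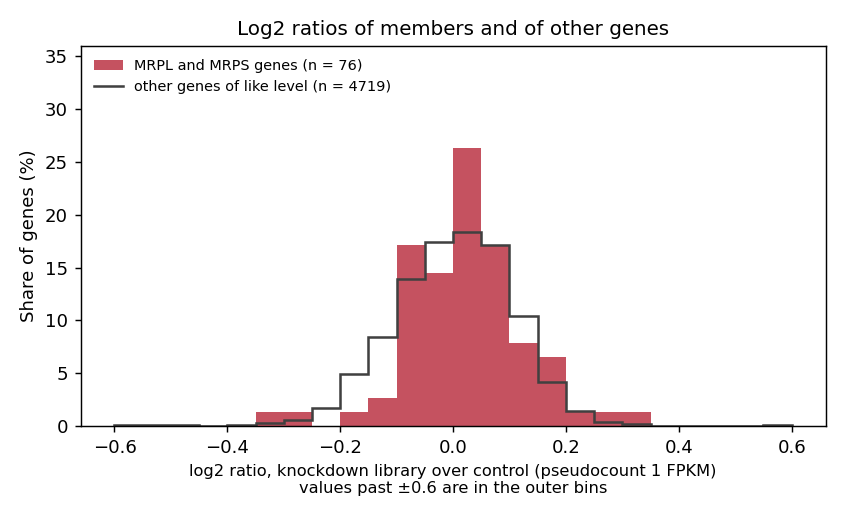
Share of genes in each bin of log2 ratio, library labelled knockdown over control, for the 76 measured members (filled) and for 4719 other genes whose mean level lies between the members' 5th and 95th percentiles (line). The 2 distributions overlap, with medians of 0.03 and 0.0061; values past the axis are in the outer bins.

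At a size of 1.2-fold, 1 of 76 members was higher, MRPS14, and 1 was lower, MRPL36. Over all measured genes 1.76% were higher and 3.21% lower by that size. No member reached 2-fold on exons, a size passed in either direction by 0.69% of all measured genes. The counts of members are near the background shares.

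MRPS14, the bacterial S14-type protein of the small subunit head, lies at 173248717 to 173259214 on the minus strand of chromosome 1 (hg18). Its 16.0 FPKM in the library labelled knockdown and 12.5 FPKM in control gave a ratio of 1.28 (95% interval 1.13 to 1.44). Of the 684 fragments on its exons in the library labelled knockdown, 91.9 came from a model of CACYBP on the opposite strand that runs over 1889 of its bases, and none did among the 439 of control. With models of its own strand alone the log2 ratio was 0.14 in place of 0.33. These assemblies carry no strand of the reads, so the origin of the overlapping fragments cannot be told apart.

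MRPL36, the counterpart of a very small zinc-binding protein of bacterial large subunits, lies at 1851499 to 1852956 on the minus strand of chromosome 5 (hg18). It had 17.6 FPKM in the library labelled knockdown and 22.1 FPKM in control, a ratio of 0.80 (0.66 to 0.97), from 216 and 222 fragments. In control the fragments were divided between the RefSeq model, with 116 fragments, and an assembled model of 676 bases that shares no exact intron with it, with 117. In the library labelled knockdown all 216 lay on the RefSeq model. Counting only models named for the gene therefore gave the opposite sign, a log2 ratio of 0.57 by the sum and 0.55 by fragments scaled for depth and not length, against −0.31 on exons.

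Short of the 1.2-fold limit, on the scale with 1 FPKM added, stood MRPL30 at a log2 ratio of 0.26. MRPL22, a protein lining the exit tunnel, was at 0.23. Their ratios were 1.21 (1.12 to 1.31) and 1.18 (1.08 to 1.29). For MRPL30 the sum over named models gave a log2 ratio of −0.28 and depth-scaled fragments 0.49, so its direction turns with the measure. MRPL9 followed with 76.0 FPKM in the library labelled knockdown and 67.4 FPKM in control, a ratio of 1.13 (1.05 to 1.21). It was carried by the same RefSeq model alone in both libraries, and its sum and exon values were both 0.17 on the log2 scale. MRPS11, a small subunit platform protein, was at 25.8 and 22.96 FPKM, a ratio of 1.12 (1.01 to 1.25).

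MRPL21 had 80.6 FPKM in the library labelled knockdown and 72.4 FPKM in control, a ratio of 1.11 (1.02 to 1.218), and MRPS30 had 72.9 and 65.5 FPKM, also 1.11 (1.05 to 1.18). MRPL42 had 56.9 and 51.4 FPKM, a ratio of 1.11 (1.05 to 1.17), MRPS35 had 83.2 and 75.2 FPKM, 1.11 (1.05 to 1.17), MRPL32 62.2 and 56.3 FPKM, 1.103 (1.01 to 1.21), and MRPS15 93.1 and 84.7 FPKM, 1.099 (1.02 to 1.18). The intervals of these members lie above 1, which covers counting error and not the spread between cultures. By the sum over named models the log2 ratio was −0.43 for MRPL42, −0.06 for MRPS15 and −0.04 for MRPS11, the opposite direction. MRPS34 belongs to the same range by exons, with 1.11 (1.05 to 1.18), but 270 of its 2430 fragments in the library labelled knockdown came from a model on the opposite strand that joins EME2 and MAPK8IP3. Without opposite-strand models its log2 ratio was −0.01 in place of 0.15.

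On the lower side MRPS18C, a paralog of MRPS18B in the small subunit, came nearest to MRPL36. It had 20.7 FPKM in the library labelled knockdown and 24.995 FPKM in control, a ratio of 0.83 (0.73 to 0.94) and a log2 ratio of −0.26, with 716 of its 1121 exonic bases shared with ABRAXAS1 on the opposite strand. On its own strand the log2 ratio was −0.41. MRPS25 had 12.6 and 14.2 FPKM, a ratio of 0.89 (0.82 to 0.97), and shared 762 bases with NR2C2. Its log2 ratio was −0.16 on exons, −0.21 on its own strand and 0.03 by the sum over named models, so its direction turns with the measure. MRPL20 had a ratio of 0.90, with an interval of 0.61 to 1.32 that its low counts leave wide.

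The other low members were within counting error of 1. MRPL33 had 46.1 FPKM in the library labelled knockdown and 49.7 FPKM in control, a ratio of 0.93 (0.81 to 1.06). MRPL24, which lies near the tunnel exit, had 84.7 and 89.95 FPKM, 0.94 (0.88 to 1.01), and MRPL35 had 20.9 and 22.3 FPKM, 0.94 (0.87 to 1.02). MRPL38, MRPL43, MRPS24, MRPL14 and MRPL50 all had ratios of 0.95, and their intervals included 1. Over all 76 members the interval lay above 1 for 15 and below 1 for 3, beside 1529 and 1612 of the 11449 measured genes. Such intervals are narrower at higher levels. Among the 4719 genes of like level, whose median level was below that of the members, 900 lay above 1 and 795 below.

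**Figure D3:**
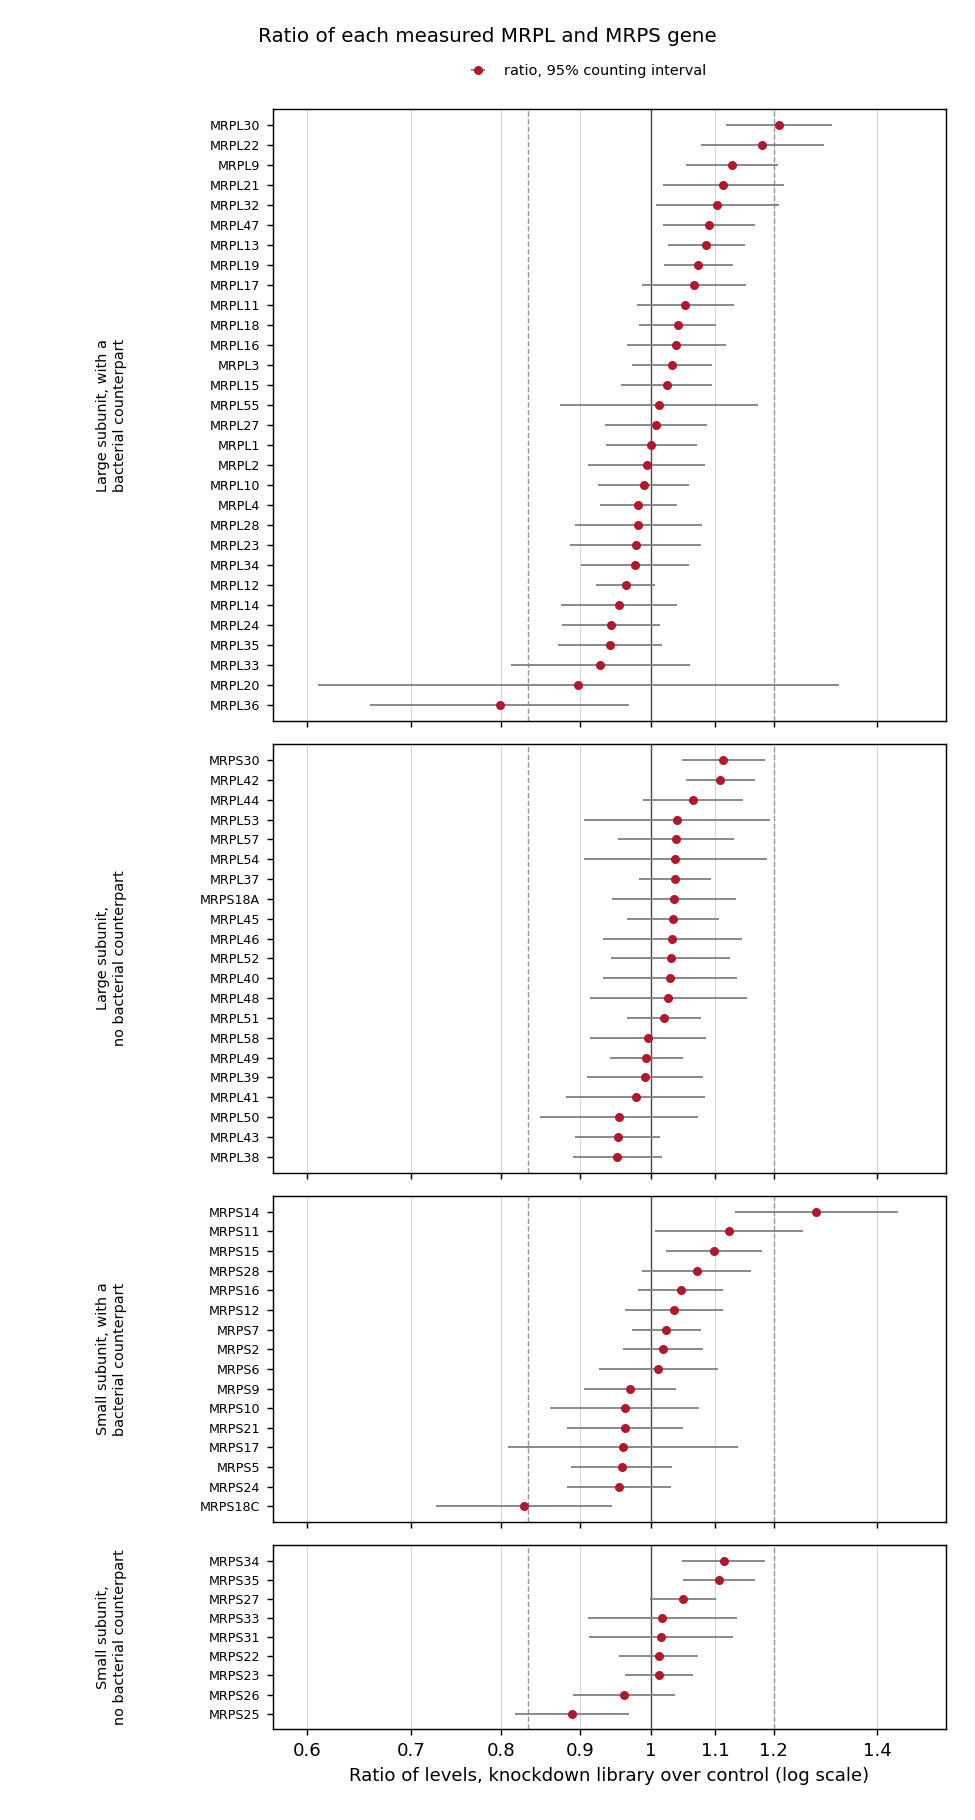
Ratio of the level in the library labelled knockdown over control for each measured member, on a log axis, with exact 95% counting intervals; dashed lines mark 1.2-fold either way without the added 1 FPKM. MRPS14 at 1.28 and MRPL30 at 1.21 lie past the upper line, and MRPL36 at 0.80 and MRPS18C at 0.83 past the lower.

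The classes had similar medians. The median log2 ratio was 0.01 for bacterial-type large subunit proteins, 0.04 for large subunit proteins without a counterpart, 0.02 for bacterial-type small subunit proteins and 0.02 for the remaining small subunit proteins. Large subunit members as a whole stood at 0.04 (n = 51) and small subunit members at 0.02 (n = 25). Among the 39 members whose named models were the same RefSeq ones alone in both libraries the median was 0.04. Models not named for a member could still lie on its exons, as in MRPL36, MRPL10 and MRPL57 in control. Among the other 37 members the median was 0.02. For the 64 that share no base with another gene it was 0.03.

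The rest of the mitochondrial translation system was as even. Of 5 mitoribosome subunits with other symbols, 4 were measured, with a median of −0.0019 and none past 1.2-fold. DAP3, a GTP-binding small subunit protein, had 56.8 FPKM in the library labelled knockdown and 57.5 FPKM in control, GADD45GIP1 83.2 and 85.9 FPKM, CHCHD1 51.4 and 50.9 FPKM, and PTCD3 24.6 and 22.7 FPKM. AURKAIP1 was under the minimum, at 0.26 and 0.58 FPKM. All 26 ribosome assembly and rRNA-modifying factors were measured, with a median of 0.04 and none past 1.2-fold. Their range ran from MRM1, an rRNA methyltransferase, at 9.75 and 11.7 FPKM, and MTG1, an assembly GTPase, at 11.02 and 12.8 FPKM, to FASTKD2 at 18.5 and 16.9 FPKM and NOA1 at 35.7 and 32.2 FPKM.

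None of the 15 translation factors or the 16 measured of 17 mitochondrial aminoacyl-tRNA synthetases passed 1.2-fold in either direction. Nor did any of 15 genes in a list of mitochondrial DNA transcription and upkeep, which also holds nuclear regulators of mitochondrial genes such as PPRC1. The medians of these lists, in that order, were 0.05, 0.04 and 0.04. Among the factors, MTIF2, an initiation factor, had 38.0 FPKM in the library labelled knockdown and 32.6 FPKM in control, GFM2, for ribosome recycling, 31.9 and 28.8 FPKM, TUFM, the elongation factor that brings tRNA, 152.4 and 160.4 FPKM, and MRRF, the recycling factor, 24.3 and 26.6 FPKM. Among the synthetases, YARS2 had 34.6 and 31.1 FPKM, AARS2 7.83 and 8.61 FPKM, and SARS2 26.3 and 29.1 FPKM. In the last list MTERF1 had 15.7 and 14.3 FPKM, SSBP1, the single-strand DNA binding protein, 115.9 and 106.0 FPKM, PPRC1 48.4 and 51.7 FPKM, and POLRMT, the mitochondrial RNA polymerase, 13.8 and 15.0 FPKM.

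A sum of FPKM over the models named for a gene gave other values for many members. Of 38 named ones, 16 moved by more than their counting interval, and MRPL36, past 1.2-fold on exons, turned sign. Some of the 16 changed sign too, from smaller values. MRPL14 went from −0.07 on exons to 0.08 by the sum, MRPL18 from 0.06 to −0.12, and MRPL35 from −0.08 to 0.43. By that sum MRPL19 was 2-fold or more higher and MRPL22 2-fold or more lower, 1 member each way, beside 1.34% of genes higher and 1.38% lower. MRPL19, a bacterial L19-type protein, had 2067 fragments on its RefSeq model of 7827 bases and 1338 on an assembled model of 958 bases in the library labelled knockdown, and 2603 fragments on the RefSeq model alone in control. On the log2 scale the sum gave 2.04 and the exons 0.10. MRPL22 had 1159 fragments on a RefSeq model of 3173 bases in the library labelled knockdown; in control it had 510 on that model and 339 on an assembled one of 585 bases. For this gene the sum gave −1.34 and the exons 0.23. Equal numbers of fragments give a higher FPKM on a shorter model, so these sums compare models of unequal length. MRPL57, with 8 listed pseudogenes, had log2 ratios of 0.79 by the sum and 0.05 on exons, where models on the other strand or with no strand held 183 fragments in the library labelled knockdown and 486 in control.

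**Figure D4:**
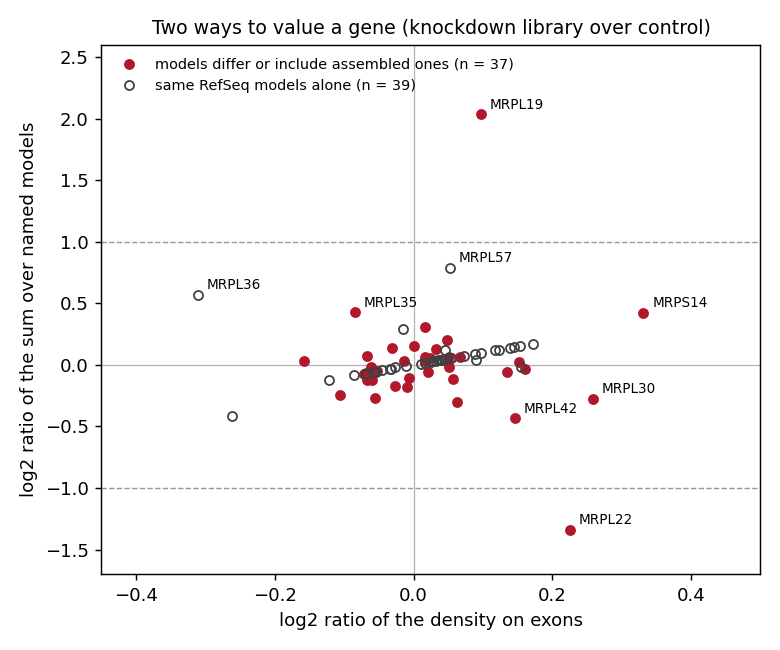
Log2 ratio of the sum over named models against the log2 ratio of the density on exons, library labelled knockdown over control, for the 76 measured members, open where the named models are the same RefSeq ones alone; dashed lines mark 2-fold. MRPL19 at 2.04 and MRPL22 at −1.34 by the sum lie at 0.10 and 0.23 on exons.

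Shorter assembled models with no intron outside RefSeq were also seen in both libraries. MRPS23 had 1988 of its fragments on a model of 772 bases in the library labelled knockdown, or 55.4%, and 1898 on one of 843 bases in control, or 65.4%. MRPS27 had 65.0% on a model of 2560 bases in the library labelled knockdown and 66.6% on one of 2583 bases in control. MRPL15 was less even: a model of 1084 bases held 72.1% in the library labelled knockdown, and one of 830 bases held 33.5% in control. MRPL42, with RefSeq models alone in the library labelled knockdown, had 45.4% and 25.4% of its fragments on assembled models of 1854 and 1857 bases in control.

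Splice forms were compared through the introns of the models that carried fragments. The sets of introns differed between the libraries for 17 of 76 members, or 22.4%. They differed for 45.3% of all 10824 measured genes with introns, which had a median of 9 RefSeq introns beside 4 for members. With RefSeq models alone the count was 4 of 75, namely MRPL30, MRPL33, MRPL55 and MRPS33, beside 13.5% of 9820 genes. An intron outside the coding RefSeq models was present in the library labelled knockdown alone for 6 members, beside 21.5% of all genes compared, and in control alone for 9, beside 21.3%. In the files' own share of a locus, no model with fragments held under 10.0% in either library, so a form that is not listed may still have been present at a lower share.

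MRPL33, a bacterial L33-type protein of the large subunit, differed by the 107-base coding exon printed above, at 27850795 to 27850901 on chromosome 2 (hg18). The form with the exon had 477 fragments, 50.7 FPKM (deposited interval 46.1 to 55.3), in the library labelled knockdown and 271.5 fragments, 35.2 FPKM (30.4 to 39.9), in control. The form without it stood at 0 in the library labelled knockdown and had 150.5 fragments, 25.2 FPKM (20.3 to 30.1), in control, 35.7% of the gene's fragments there. Both forms are RefSeq models. The fragments of the gene as a whole were close, with a log2 ratio of −0.11.

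In MRPL2, the counterpart of the bacterial L2 protein beside the peptidyl transferase centre, all 1143 fragments were on the RefSeq model in the library labelled knockdown. In control 555 were on that model and 389, or 41.2%, on an assembled model without the 74-base exon. MRPS10, of the small subunit head, had 594 fragments on the RefSeq model and 142, or 19.4%, on a model without the 73-base exon in the library labelled knockdown, and 599 on the RefSeq model alone in control. MRPS18A had 786 fragments on the RefSeq model and 259, or 24.8%, on a model without 2 exons in the library labelled knockdown, and 829 on the RefSeq model alone in control. Whole-exon loss from an assembled model was thus seen in either library, and the levels of MRPL2, MRPS10 and MRPS18A on exons had log2 ratios of −0.01, −0.05 and 0.05.

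MRPS22, a small subunit protein without a bacterial counterpart, was carried in the library labelled knockdown by 1349 fragments on the RefSeq model, 840.5 on a like model with other ends and 402, or 15.5%, on the model without the 3 bases. All 2051 were on the RefSeq model in control. MRPS11 had its 773 fragments on the RefSeq model in the library labelled knockdown, and 438 there and 170, or 27.9%, on the model without 3 bases in control. MRPS15 had 1794 fragments on the RefSeq model in the library labelled knockdown, against 1074 on it and 266, or 19.9%, on the model without 5 bases in control. These models rest on an acceptor site very near the RefSeq one.

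Other members with differing introns used another donor or acceptor, or were divided among more forms. MRPL1 had 677 fragments, or 34.3%, on a model with a donor 134 bases from the RefSeq one in the library labelled knockdown, and MRPL14 had 493, or 42.8%, on a model with a donor 9 bases away. In control each had its RefSeq model alone, with 1560 and 993 fragments. MRPL28 was the other way round, with 971 fragments on the RefSeq model in the library labelled knockdown, and in control 452 on it and 365, or 44.7%, on a model whose donor lies 14 bases away. MRPL58, a peptidyl-tRNA hydrolase built into the large subunit, had 1168 fragments on the RefSeq model in the library labelled knockdown, and 861 on it and 110, or 11.3%, on a model with a donor 1065 bases from the RefSeq one in control. The assembled control model of MRPL22 has a donor 49 bases before a RefSeq one and leaves out the 49 bases between. MRPL30 had a noncoding RefSeq model with 152 fragments in control, which was without fragments in the library labelled knockdown. MRPL55, with 8 RefSeq models, had 97.7 fragments on its form of 578 bases in the library labelled knockdown and 161 on its form of 690 bases in control, each at 0 in the other library. MRPL23 had a model with an acceptor 645 bases from a RefSeq one in the library labelled knockdown. In control MRPS17 had a model with a donor 18 bases from a RefSeq one, and MRPS31 had introns with acceptors outside RefSeq.

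In some members with several RefSeq forms, chosen after their values were seen, the shares were close. The longer form of MRPL24 held 54.8% of its fragments in the library labelled knockdown and 54.4% in control. The main form of MRPL11, at the stalk base, held 84.7% and 85.1%, and that of MRPL4, which reaches into the exit tunnel, 86.1% and 84.5%. The main form of MRPL52 held 57.0% in the library labelled knockdown and 53.9% in control. MRPS12, the counterpart of the decoding-site protein S12, was not so even and had a RefSeq form with 1 intron in place of 2 between the same ends. It held 321 fragments, or 20.5%, in the library labelled knockdown and 0 in control.

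**Figure D5:**
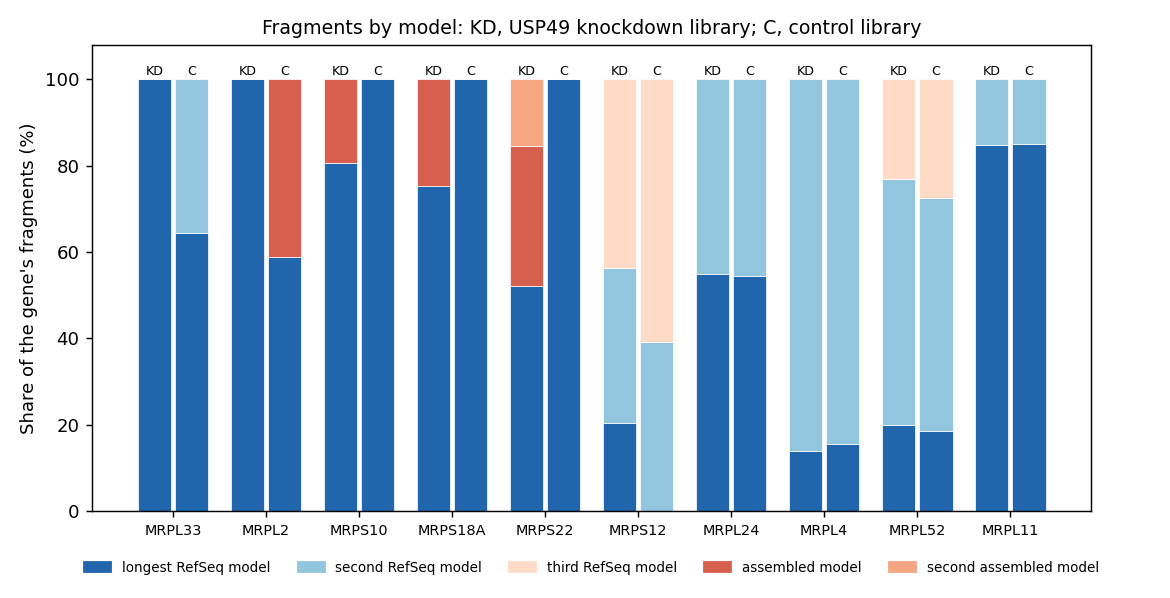
Share of each gene's fragments by model in the library labelled knockdown (KD) and in control (C) for 10 members; blue to cream are RefSeq models from longest to shortest and red shades are assembled models. MRPL33 has 100% and 64.3% on its longest model, while MRPL24, MRPL4, MRPL52 and MRPL11 show nearly the same shares in both libraries.

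Many members lie head to head with another gene. Of 77, 23 or 29.9% had a RefSeq gene starting on the other strand within 1000 bases upstream, beside 9.68% of all 18857 genes. The starts were 16 to 992 bases apart, with a median of 116. MRPL46 and MRPS11, 1 in each subunit, face each other on chromosome 15 with 51 bases between their starts. MRPL46 had 41.5 FPKM in the library labelled knockdown and 40.2 FPKM in control, and MRPS11 25.8 and 22.96 FPKM. These members make 22 pairs, and in 20 of them both genes were measured. The 19 partners that are not members had a median log2 ratio of 0.02. On exons 1 partner was 1.2-fold or more higher, EME2 beside MRPS34, with 10.55 FPKM in the library labelled knockdown and 5.99 FPKM in control. Its 240 fragments in the library labelled knockdown came from the joined model spread evenly over its length, while models named for EME2 alone held 0, against 112 in control, so the direction turns with the measure. On exons 1 partner was lower, EME1 beside MRPL27, with 12.8 and 16.9 FPKM. Models of EME1's own strand held 0 fragments in both libraries, so that difference rests on models of another strand or none. MRPL27 itself had 107.2 and 106.5 FPKM.

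Promoters in the RefSeq table (GRCh38.p14), 250 bases before to 50 after the start, were given for 69 members. Both strands were searched for CCGGAAG, the core bound by ETS family factors such as GABPA, for AAGATGGC, bound by YY1, and for GCGCATGC, bound by NRF1. The ETS letters were in 29 promoters, or 42.0%, beside 14.2% of 15843 coding promoters and 20.3% of those of 9410 measured genes. The YY1 letters were in 20, or 28.99%, beside 3.91% and 5.74%, and 15 members held them within the 50 bases after the start. These letters hold an ATG, so a match after the start may include the codon that begins translation, which was not examined. The NRF1 letters were in 6, or 8.70%, beside 4.26% and 5.78%. At least 1 of the motifs was in 60.9% of members and in 28.6% of measured genes, and no member had letters of 2 motifs that overlap. Log2 ratios were close with and without the ETS and YY1 letters. The median was 0.02 for the 29 members with the ETS letters and 0.03 for the 39 measured without them, and 0.05 and 0.02 for the 19 measured with and the 49 without the YY1 letters. For the NRF1 letters it was 0.09 and 0.02, with 5 measured members holding them. Shown are the promoters of MRPL51 and MRPS34, abundant members with several matches, and of MRPL46, whose window faces MRPS11; capitals mark the matches.
MRPL51, minus strand, chr12:6493213-6493512: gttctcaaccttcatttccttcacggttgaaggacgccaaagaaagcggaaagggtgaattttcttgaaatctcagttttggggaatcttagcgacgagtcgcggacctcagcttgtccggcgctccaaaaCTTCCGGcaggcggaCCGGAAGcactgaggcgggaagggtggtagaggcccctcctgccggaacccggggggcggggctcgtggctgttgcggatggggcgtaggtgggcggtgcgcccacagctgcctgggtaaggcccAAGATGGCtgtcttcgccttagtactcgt
MRPS34, minus strand, chr16:1773085-1773384: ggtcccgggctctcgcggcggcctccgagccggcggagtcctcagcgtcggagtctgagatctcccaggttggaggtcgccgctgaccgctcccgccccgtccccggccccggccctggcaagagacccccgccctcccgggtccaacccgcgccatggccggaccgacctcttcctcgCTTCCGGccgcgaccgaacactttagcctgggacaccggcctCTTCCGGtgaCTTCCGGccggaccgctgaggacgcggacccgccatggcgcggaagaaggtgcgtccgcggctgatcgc
MRPL46, minus strand, chr15:88467339-88467638: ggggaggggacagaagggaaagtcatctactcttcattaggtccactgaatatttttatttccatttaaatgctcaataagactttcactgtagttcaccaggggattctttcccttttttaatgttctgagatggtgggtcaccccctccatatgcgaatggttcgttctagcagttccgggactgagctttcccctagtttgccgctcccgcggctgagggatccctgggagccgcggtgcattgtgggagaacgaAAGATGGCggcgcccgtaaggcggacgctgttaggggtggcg

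In MRPL51 the ETS letters begin 119 and 104 bases before the start, 1 match on each strand, and the YY1 letters at base 22 after it. In MRPS34 the ETS letters begin 71, 29 and 19 bases before the start, all on the other strand, and MRPL46 has YY1 letters from base 9. These are matches of letters and not evidence of binding.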

How the data were processed

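Poly(A) RNA was sequenced from 1 library labelled USP49 knockdown and 1 control library. Per the file headers and columns, the authors deposited Cufflinks assemblies guided by RefSeq, 1 per library. Alignment tools (Bowtie, TopHat), Picard, SAMtools, bedtools and the build hg18 are credited to the submitters' processing notes, which give no versions. The deposited FPKM were not divided by depth. Fragments were recovered from each interval, read as the value ± 2 Poisson SD, and were whole within 0.02 for 99.98% of 20680 loci with 1 model in the library labelled knockdown and all 19477 in control. Models with a strand followed length − 47 bases. FPKM were rescaled to the recovered totals, and each model's fragments were spread evenly over its length, since the files hold no read positions.

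RefSeq accessions were named by a GRCh38.p14 table. Python 3.11.15, pandas 2.3.3 and SciPy 1.17.1 were used. The recovery and density were run on simulated data built by the same length rule, so the recovery there was fixed by construction. Both simulated libraries had the control library's models with a strand, and only genes sharing no bases were changed. Models that differ between libraries and overlaps from other strands were therefore not tested. Ratio intervals are exact conditional binomial. The members and lists were chosen with earlier results of these data known. Named members were the 12 highest and 12 lowest ratios, the 8 highest and 5 lowest levels, those past 2-fold by the sum, those not measured, and 10 with differing introns and the most fragments. MRPL4, MRPL11, MRPL15, MRPL23, MRPL27, MRPL46, MRPL52, MRPL55, MRPL57, MRPS12, MRPS17, MRPS27, MRPS31 and MRPS33 were added for their forms or place after their values were seen, and MRPL10 for its own-strand value. Of the other lists, 1 gene that the rule names is not reported here. The gene once called MRPS36 now has another symbol and was not a member.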

Additional observations from a re-analysis of the deposited data

How the results depend on the processing

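The median log2 ratio of the members stayed between 0.03 and 0.04 under all 9 other settings chosen with the design. The same held for 1 added after the values were seen. That setting kept the 39 members whose named models were the same RefSeq ones alone, whatever other models lay on their exons. The count of members 1.2-fold or more higher, 1 on exons, was 7 by the sum over models, 4 by fragments scaled for depth and not length, 2 with models of the gene's strand, 2 with a pseudocount of 0.1 FPKM, 2 with densities set to equal totals, and 0 among the 39. With the gene's strand the 2 were MRPL57 at 0.79 and MRPL10 at 0.29, while MRPS14 was at 0.14. MRPL10 was at −0.02 on exons, where a model with no strand held 302 of its 1553 fragments in control. The count lower, 1 on exons, was 6 by the sum and 2 with each of depth-scaled fragments, the gene's strand, the pseudocount of 0.1 and equal totals. The count past 2-fold, 0 on exons, was 2 by the sum. The count with differing introns, 17, was 4 with RefSeq models alone, where 13.5% of all genes differed, and 17 with models of 5% or more, where 45.3% did. The limit of 5% could hardly change the count, since no model with fragments held under 10.0% in the files' own share of a locus. Of the named members, MRPL36 was at −0.31 on exons, 0.57 by the sum and 0.55 by depth-scaled fragments. By the sum another 16 of 38 named members moved by more than their counting interval, by depth-scaled fragments 3, with the gene's strand 2, and with either other scaling or the pseudocount none. The cause was not tested. No paired analysis was possible because each group has 1 library. Counting error alone gave a median half-width of 0.11 on the log2 scale, from 0.06 to 0.56 in MRPL20.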
